A study of Mus musculus with 15 samples.

Results

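The brush border peptidases are the membrane-bound enzymes that finish protein digestion on the apical face of the enterocyte. The group was fixed by name as 9 genes, Anpep, Dpp4, Mme, Enpep, Ace, Mep1a, Mep1b, Ggt1 and Dpep1, and each was read from the array's probe set that carried its symbol alone. Of these 9 genes, 8 were measured, among 18820 genes in all, and each had 1 such probe set. No probe set carried Ggt1 as its only symbol, so it has no value here. All 8 measured genes had a mean above the background, a log2 intensity of 3.91 that 95% of 1157 genes for smell and pheromone receptors did not exceed.

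Monolayers of duodenal organoid cells (enteroids) from 9-week-old female C57BL/6J mice were exposed for 6 h to casein (CAS), soybean meal (SBM), spray-dried plasma protein (SDPP) or yellow mealworm (YMW), or to DMEM alone as the medium control (MC). Each of the 5 groups had 3 arrays, 15 in all, and each array held RNA pooled over 3 wells. The dose is given as 4% w/v in the labels, and the study's methods also give it as a mass of protein per volume that differs from this, so the dose stays unsettled. All groups shared the wild type background and the W-ENR medium with EGF, noggin, WNT3A and R-spondin. These are cultured epithelial cells without the other tissues of the gut wall, and the ingredients had not been digested beforehand. Organoid lines of 3 mice were kept apart, and the labels call the samples of a group biological replicates. No label ties a replicate number to a mouse.

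Proteins that leave the stomach and the pancreatic enzymes as short peptides are cut further on the microvilli by peptidases anchored in the apical membrane with their active sites facing the lumen. Aminopeptidases take residues off the N-terminus, endopeptidases cut inside the chain, and dipeptidases split the last peptide bond. The amino acids, dipeptides and tripeptides that remain enter the enterocyte through carriers such as the peptide transporter Slc15a1. These enzymes are made by differentiated enterocytes of the villus and are low in the crypt.

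The MC arrays were not alike. MC replicates 2 and 3 stood apart from MC replicate 1 and from the 12 treated arrays, whereas for all 8 peptidase genes MC replicate 1 was neither above nor below all of the treated arrays, as it was for 84.2% of all genes. The mean log2 intensity of 9 enterocyte markers was 8.47 to 10.42 on the treated arrays, against 8.69, 11.03 and 11.10 in MC replicates 1, 2 and 3. The mean of 7 cycling cell markers was 8.63 to 9.03 on the treated arrays, against 9.01, 8.03 and 7.51 in the same MC arrays, and that of 8 stem cell markers was 8.63 to 9.08, against 8.93, 8.12 and 7.53. In bulk RNA, fewer cells of a type and less RNA per cell cannot be told apart. The culture had the markers of its labelled tissue, with all 9 enterocyte markers above background. The means of the immune and endothelial lists, at 4.02 to 4.28 and 3.82 to 4.01 over the 15 arrays, were close to it. That of the mesenchyme list was at 4.12 to 4.36. Single genes were above background, namely 3 of 6 immune, 1 of 5 endothelial and 5 of 8 mesenchyme genes. Among them, Cd68 had a mean of 6.12, Vim of 5.26 and Col1a1 of 5.22. Every comparison with the MC below uses these 3 arrays, and the calls under other choices of MC arrays follow the counts of genes.

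The upstream sequences of 5 genes are shown to set both kinds of pattern described later beside their annotated starts; use of these starts was not measured. Ace, Mep1a and Dpep1 are from the set that was lower with several sources, and Anpep and Dpp4 from the set that was not. Each run is the 250 bases before an annotated start in RefSeq's GRCm38.p6, written 5′ to 3′ on the gene's own strand. They lie at chr7:79848211-79848460, minus strand (Anpep), chr2:62412232-62412481, minus strand (Dpp4), chr11:105967698-105967947, plus strand (Ace, the first of its annotated starts), chr17:43502774-43503023, minus strand (Mep1a) and chr8:123185985-123186234, plus strand (Dpep1). Capitals mark matches to the motifs named after the sequences.
Anpep: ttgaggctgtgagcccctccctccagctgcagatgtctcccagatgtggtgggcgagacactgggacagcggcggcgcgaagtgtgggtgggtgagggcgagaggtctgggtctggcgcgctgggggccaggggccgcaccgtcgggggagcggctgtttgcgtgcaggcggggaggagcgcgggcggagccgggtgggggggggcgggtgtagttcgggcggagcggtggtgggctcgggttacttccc
Dpp4: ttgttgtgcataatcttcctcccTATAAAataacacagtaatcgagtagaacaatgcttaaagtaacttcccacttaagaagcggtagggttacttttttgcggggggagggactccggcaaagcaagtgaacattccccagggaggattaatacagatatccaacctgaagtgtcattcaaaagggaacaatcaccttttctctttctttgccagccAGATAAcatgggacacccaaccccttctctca
Ace: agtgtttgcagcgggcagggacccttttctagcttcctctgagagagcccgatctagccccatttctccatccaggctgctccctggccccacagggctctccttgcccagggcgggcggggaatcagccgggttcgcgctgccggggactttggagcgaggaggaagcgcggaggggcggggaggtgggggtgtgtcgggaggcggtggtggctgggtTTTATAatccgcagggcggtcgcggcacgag
Mep1a: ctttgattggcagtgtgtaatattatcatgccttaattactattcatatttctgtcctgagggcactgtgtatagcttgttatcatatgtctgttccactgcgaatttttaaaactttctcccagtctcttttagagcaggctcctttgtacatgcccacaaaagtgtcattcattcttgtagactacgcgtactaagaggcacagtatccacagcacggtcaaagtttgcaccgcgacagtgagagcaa
Dpep1: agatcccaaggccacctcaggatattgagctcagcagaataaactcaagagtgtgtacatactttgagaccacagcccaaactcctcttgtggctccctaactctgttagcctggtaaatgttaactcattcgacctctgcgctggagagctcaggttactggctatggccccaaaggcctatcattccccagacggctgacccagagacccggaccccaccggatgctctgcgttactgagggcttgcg

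Of the 9 genes, 8 had a window of this kind that could be used, with 14 windows in all. Both strands were searched for 4 motifs, of which none contains another, and the share of 32851 windows of the same length that held each is given beside it. CAAAGNNCA, the motif of HNF4, was in 5.49% of those windows. TTTATG, which the caudal factor CDX2 binds, was in 10.8%. AGATAA, the motif of the zinc finger factors of the GATA family, was in 9.99%. TATAAA, the box at which many promoters set their start, was in 12.4%. In Dpp4 the capitals are a TATA box that starts 227 bases before the start site and a GATA motif that starts 32 bases before it. In Ace they are TTTATA, the TATA box on the opposite strand, 31 bases before the start. The upstream windows of Anpep, Mep1a, Dpep1 and Mme held none of the 4 motifs in these letters. Enpep had a TATA box on the opposite strand 52 bases before its start, a second Ace window an HNF4 match, and the 4 windows of Ggt1 a GATA match and a TATA box. A match is a run of letters and not a measured binding site.

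The 8 genes fell into a bright and a dim set on this array, though intensities of different probe sets are not levels that can be ranked. Anpep, Mep1b and Dpp4 had group means between 7.16 and 9.34 on the log2 scale. Enpep, Ace, Mep1a, Mme and Dpep1 had group means between 3.94 and 6.14. Mme and Dpep1 were the nearest to background, with single arrays at 3.91 and 3.71.

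**Figure D1:**
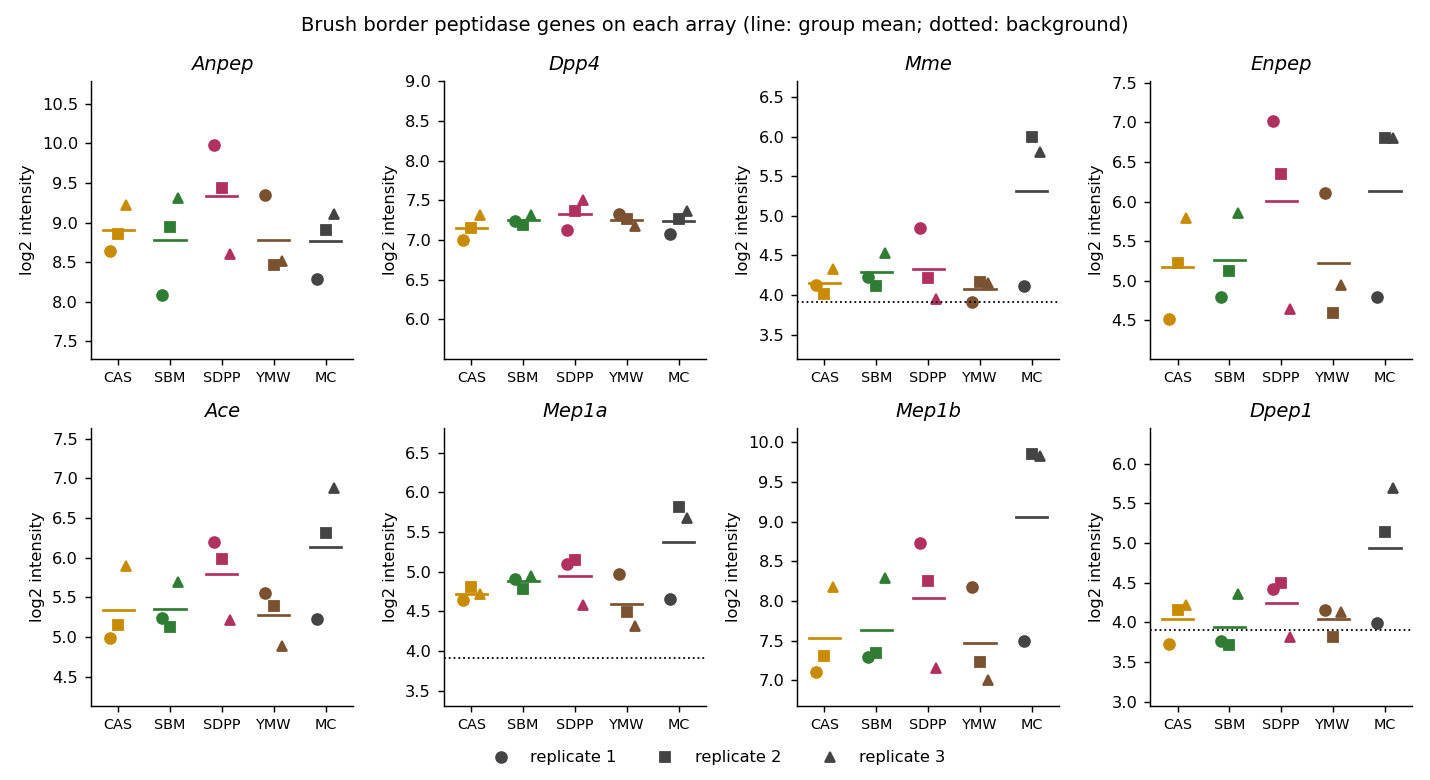
Log2 intensity of the 8 measured peptidase genes on each of the 15 arrays, by group, with CAS, SBM, SDPP and YMW to the left of MC. Marker shapes give the replicate, horizontal lines the mean of 3 arrays, the dotted line the background of 3.91, and every panel spans the same 3.5 log2 units. MC replicates 2 and 3 lie above all other arrays for Mme, Ace, Mep1a, Mep1b and Dpep1, and MC replicate 1 lies among the treated arrays.

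Among the aminopeptidases, Anpep did not fall with any source. Anpep, aminopeptidase N, removes neutral residues from the N-terminus and is the most abundant aminopeptidase of the brush border. Its log2 intensities were 8.64, 8.85 and 9.22 with CAS, 8.09, 8.94 and 9.31 with SBM, 9.98, 9.44 and 8.60 with SDPP, 9.35, 8.46 and 8.52 with YMW, and 8.29, 8.91 and 9.11 in the MC. The groups overlapped throughout, and the highest arrays were SDPP replicates 1 and 2. The log2 fold change was 0.57 with SDPP (SE 0.36, 95% interval -0.21 to 1.35, adjusted p = 0.537, limma), 0.13 with CAS, and 0.00 with SBM and with YMW. Without SDPP replicate 3 the value for SDPP became 0.94, with an unadjusted p of 0.0203 in limma and an adjusted p of 0.75, past the threshold of the study, which is given with the counts of genes.

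Enpep, aminopeptidase A, removes acidic residues from the N-terminus and converts angiotensin II. It was at 4.52, 5.23 and 5.79 with CAS, 4.80, 5.13 and 5.86 with SBM, 7.02, 6.35 and 4.64 with SDPP, 6.11, 4.60 and 4.95 with YMW, and 4.79, 6.80 and 6.80 in the MC, as log2 intensities. The highest of all 15 arrays was SDPP replicate 1, and the lowest MC array lay below the mean of every treated group. CAS, SBM and YMW gave log2 fold changes of -0.95, -0.87 and -0.91 and SDPP one of -0.12, each with an SE of 0.63, and none passed the threshold. Enpep had the widest spread of the 8 genes among the treated arrays, with an SD of 0.80 (n = 12).

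Dpp4, which cuts dipeptides ending in proline or alanine from the N-terminus and inactivates incretin hormones, hardly varied. Its log2 intensities were 7.0, 7.15 and 7.31 with CAS, 7.24, 7.19 and 7.31 with SBM, 7.12, 7.36 and 7.51 with SDPP, 7.33, 7.26 and 7.18 with YMW, and 7.07, 7.27 and 7.37 in the MC. All 15 arrays lay between 7.0 and 7.51. CAS gave a log2 fold change of -0.08, SBM 0.01, SDPP 0.09 and YMW 0.02, each with an SE of 0.11, and the 95% intervals ran at their widest from -0.32 for CAS to 0.34 for SDPP. The SD over the 12 treated arrays was 0.13, against 0.25 to 0.80 for the 7 other genes.

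The endopeptidases fell with several sources. Mep1b, the meprin β subunit, is a metalloendopeptidase of the brush border that also sheds MUC2 from the epithelial surface. Mep1b was at 7.11, 7.30 and 8.18 with CAS, 7.29, 7.34 and 8.29 with SBM, 8.73, 8.25 and 7.15 with SDPP, 8.17, 7.23 and 7.0 with YMW, and 7.50, 9.86 and 9.83 in the MC, in log2 intensity. MC replicates 2 and 3 lay more than 1 log2 unit above each other array, whereas MC replicate 1 lay among the treated arrays. Mep1b fell by 1.53 on the log2 scale with CAS (SE 0.58, unadjusted p = 0.0183, adjusted p = 0.201), by 1.42 with SBM (adjusted p = 0.225) and by 1.60 with YMW (adjusted p = 0.167), all from limma. With SDPP the log2 fold change was -1.02 (95% interval -2.25 to 0.21, adjusted p = 0.482 in limma), which did not pass.

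Mep1a, the meprin α subunit, forms secreted or, with meprin β, membrane-bound complexes. Its log2 intensities were 4.64, 4.80 and 4.72 with CAS, 4.91, 4.78 and 4.95 with SBM, 5.10, 5.15 and 4.58 with SDPP, 4.97, 4.49 and 4.31 with YMW, and 4.65, 5.81 and 5.68 in the MC. The CAS and SBM arrays were tight, with SDs of 0.08 and 0.09, against an SD of 0.63 in the MC (n = 3 each). Mep1a fell by 0.66 on the log2 scale with CAS (SE 0.25, adjusted p = 0.21) and by 0.79 with YMW (SE 0.25, adjusted p = 0.14) in limma, and its values with SBM and SDPP, -0.50 and -0.43, did not pass.

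Mme, neprilysin, cuts on the amino side of hydrophobic residues and degrades enkephalins and other small peptides. It was the gene that passed the threshold with all 4 sources. Mme had log2 intensities of 4.13, 4.01 and 4.33 with CAS, 4.23, 4.11 and 4.53 with SBM, 4.84, 4.21 and 3.95 with SDPP, 3.91, 4.17 and 4.15 with YMW, and 4.12, 5.99 and 5.81 in the MC. All treated arrays and MC replicate 1 were within 1 log2 unit of background, and the other MC arrays were about 1 log2 unit or more above the highest of them. It fell by 1.15 with CAS (adjusted p = 0.138), by 1.02 with SBM (adjusted p = 0.194), by 0.97 with SDPP (adjusted p = 0.366) and most, by 1.23, with YMW (adjusted p = 0.122) on the log2 scale in limma, each with an SE of 0.36.

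Ace and Dpep1 cut dipeptides or release them. Ace, the angiotensin-converting enzyme, removes dipeptides from the C-terminus. It was at 4.99, 5.15 and 5.90 with CAS, 5.24, 5.13 and 5.70 with SBM, 6.20, 5.99 and 5.21 with SDPP, 5.55, 5.39 and 4.89 with YMW, and 5.23, 6.31 and 6.88 in the MC, in log2 intensity. SDPP replicate 1 came close to MC replicate 2, and the arrays of every source overlapped the MC arrays, of which MC replicate 1 was the lowest. Ace fell by 0.79 with CAS (SE 0.37, unadjusted p = 0.0496, adjusted p = 0.302) and by 0.87 with YMW (unadjusted p = 0.0339, adjusted p = 0.227) on the log2 scale in limma. With SBM its log2 fold change was -0.79 as well, with an unadjusted p of 0.0511 in limma, just outside the threshold, and with SDPP it was -0.34. The call with CAS was marginal, since leaving out any of 12 of the 15 arrays ended it (all but CAS replicate 3, SDPP replicate 3 and MC replicate 1), as did the replicate block (unadjusted p = 0.0621 in limma).

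Dpep1, the renal dipeptidase, is held in the membrane by a lipid anchor and splits dipeptides and leukotriene D4. Its log2 intensities were 3.73, 4.16 and 4.22 with CAS, 3.76, 3.71 and 4.36 with SBM, 4.42, 4.50 and 3.82 with SDPP, 4.16, 3.82 and 4.13 with YMW, and 3.99, 5.14 and 5.69 in the MC. Several treated arrays were below the background of 3.91, and MC replicates 2 and 3 were the brightest of the 15. Dpep1 fell by 0.90 with CAS (adjusted p = 0.192), by 0.99 with SBM (adjusted p = 0.182) and by 0.90 with YMW (adjusted p = 0.172) on the log2 scale, each with an SE of 0.33 in limma. With SDPP the log2 fold change was -0.70, with a 95% interval of -1.40 to 0.01.

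The threshold of the study, as its methods give it, asks for an unadjusted p below 0.05 together with a change of 1.5-fold or more. Footnotes to the study's tables instead give a log fold change above 1.5 in size, with no base named. Counts under that reading are in the last section. With CAS, 5 of the 8 peptidase genes passed, all lower, where 3.85% of all genes passed in either direction and 2.04% were lower. SBM gave 3 of 8, all lower, where 3.5% of all genes passed and 2.14% were lower. SDPP gave 1 of 8, lower, where 1.63% of all genes passed and 0.499% were lower. YMW gave 5 of 8, all lower, where 3.87% of all genes passed and 2.13% were lower. Over the 8 genes the median log2 fold change was -0.85 for CAS and -0.83 for SBM, while it was -0.39 for SDPP and -0.88 for YMW. The 4 comparisons share the MC arrays and are not independent of one another. On the p-value alone the peptidase genes called were the same in number, 5 of 8 with CAS (16.5% of all genes), 3 with SBM (18.2%), 1 with SDPP (12%) and, at 19% of all genes, 5 with YMW. At a Benjamini-Hochberg adjusted p below 0.05 in limma, 0 of the 8 were called with any source, where the share of all genes was 0.654% with CAS, 0.00531% with SBM and YMW, and 0% with SDPP.

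For the mean of the 4 sources against the MC, 5 of the 8 genes passed, all lower, where 3.35% of all genes passed and 1.9% were lower. The same 5 had an unadjusted p below 0.05, as did 23% of all genes, and 0 an adjusted p below 0.05, against 1.52% of all genes (limma). Mep1b was 2.63-fold lower (log2 fold change -1.39, SE 0.46, adjusted p = 0.0931, limma). Mme was 2.13-fold lower (log2 fold change -1.09, SE 0.29, adjusted p = 0.059, limma), Dpep1 1.83-fold, Ace 1.62-fold and Mep1a 1.51-fold, just inside the limit of 1.5. Enpep, at -0.71 on the log2 scale with an SE of 0.50, Anpep, at 0.18, and Dpp4, at 0.01, did not pass. The median of the 8 was -0.70, against 0.00 over all genes.

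**Figure D2:**
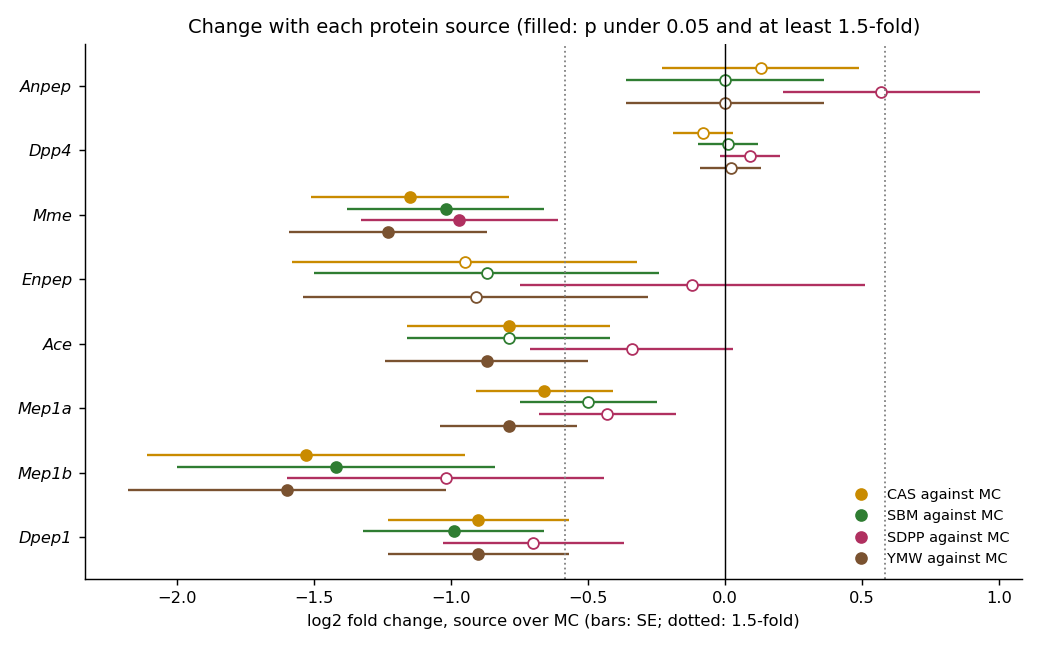
Log2 fold change of each measured peptidase gene with each protein source over the MC, from limma, with bars of 1 SE. Filled points passed the threshold (unadjusted p below 0.05, change of 1.5-fold or more), and dotted lines mark 1.5-fold. Mme is filled with all 4 sources, and Anpep, Dpp4 and Enpep with none.

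The lower values rested on MC replicates 2 and 3. These arrays lay above all 13 others for exactly the 5 genes that passed with the mean of the 4 sources, namely Mme, Ace, Mep1a, Mep1b and Dpep1. Of the 12880 genes above background, 1955 had this order, or 15.2%. With MC replicate 1 alone as the control, and the spread taken from the treated groups, 0 of the 8 genes passed in any comparison in limma, where 0.834%, 0.611%, 0.744%, 0.494% and 0.436% of all genes passed with CAS, SBM, SDPP, YMW and the 4 sources, in that order. The log2 fold changes of the 5 genes with the 4 sources were then 0.17 for Mep1b (SE 0.52), 0.09 for Mme (SE 0.24), 0.21 for Ace (SE 0.35), 0.14 for Mep1a (SE 0.22) and 0.07 for Dpep1 (SE 0.26). The unadjusted p of these 5 ran from 0.542 to 0.781 in limma, and 0 of the 8 genes had one below 0.05 in any of the 5 comparisons.

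Without MC replicate 1, 6 genes passed with CAS, SBM, YMW and the 4 sources together, where 4.48%, 4.9%, 4.6% and 4.31% of all genes were lower, in that order, and 5 with SDPP, where 3.44% were. All of these members were lower. Mep1b was then at -2.18 (SE 0.37, adjusted p = 0.000505), Mme at -1.69 (SE 0.17, adjusted p = 1.17e-05) and Enpep at -1.38 (SE 0.48, adjusted p = 0.047) with the 4 sources on the log2 scale in limma. Without MC replicate 2, 2 genes were lower past the threshold with the 4 sources, Mme and Dpep1, against 0.584% of all genes, and without MC replicate 3 only Mme was, against 0.329%. Each gene has a single variance in the model, while the SD of Mep1b was 0.56 to 0.81 in the treated groups against 1.36 in the MC (n = 3 each). For Anpep it was 0.29 to 0.70 in the treated groups and 0.43 in the MC. Which of the MC arrays is typical of the medium control cannot be told from 3 arrays.

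**Figure D3:**
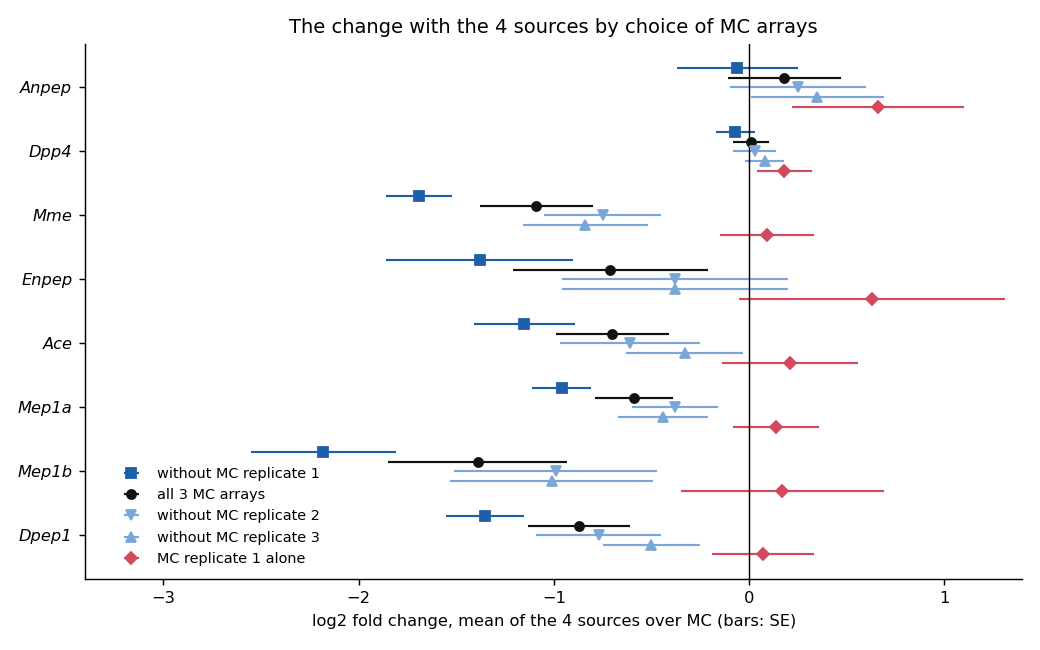
Log2 fold change of the mean of the 4 sources over the MC for the 8 genes under 5 choices of MC arrays, with bars of 1 SE. Mme, Ace, Mep1a, Mep1b and Dpep1 lie below 0 with every choice that keeps MC replicate 2 or 3 and between 0.07 and 0.21 with MC replicate 1 alone. Dpp4 stays between -0.07 and 0.18 throughout.

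A comparison of each source with the mean of the other 3 sources does not use the MC values. In it, 0 of the 8 peptidase genes passed for any source in limma, and 0 had an unadjusted p below 0.05. Over all genes, 0.159% passed and 5.36% had such a p for CAS. The shares were 0.0266% and 4.83% for SBM, 0.0159% and 2.42% for SDPP, and 0.0691% and 5.5% for YMW. SDPP had the higher values, with Enpep at 0.78 (95% interval -0.31 to 1.88), Anpep at 0.52 (-0.12 to 1.16), Mep1b at 0.50 (-0.51 to 1.5) and Ace at 0.48 (-0.17 to 1.12) on the log2 scale. All 8 genes were above 0 with SDPP in this comparison, with a median of 0.36. SDPP replicate 3 lowered these values for all but Dpp4, which was at 0.11 with that array and 0.02 without it. Without SDPP replicate 3, 84 of all genes passed in limma. Enpep then rose by 1.47 (unadjusted p = 0.0127), Anpep by 0.89 (unadjusted p = 0.0117) and Ace by 0.77 (unadjusted p = 0.0373) against the other sources in limma, each with an adjusted p of 0.995.

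The treated arrays varied among themselves in an order that cut across the sources. For Anpep, Enpep, Ace, Mep1b and Dpep1 the 5 highest of the 12 treated arrays were the same, SDPP replicates 1 and 2, CAS replicate 3, SBM replicate 3 and YMW replicate 1. Mep1a, Mme and Dpp4 each had 4 of these 5 among their highest. The mean of the 9 enterocyte markers had the same 5 arrays on top, at 9.61 to 10.42, and the other 7 treated arrays were between 8.47 and 8.82. Of the 12880 genes above background, 4.11% had these 5 arrays on top and 12.7% had at least 4 of them, against 5 and 8 of the 8 peptidase genes. The mean of the 8 peptidase genes was 6.68, 6.41, 6.21, 6.29 and 6.19 on the same arrays, 5.60 to 5.83 on the other treated arrays, and 5.70, 7.01 and 7.15 in MC replicates 1, 2 and 3. The part of the enterocyte content of each array in the peptidase values was not tested.

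**Figure D4:**
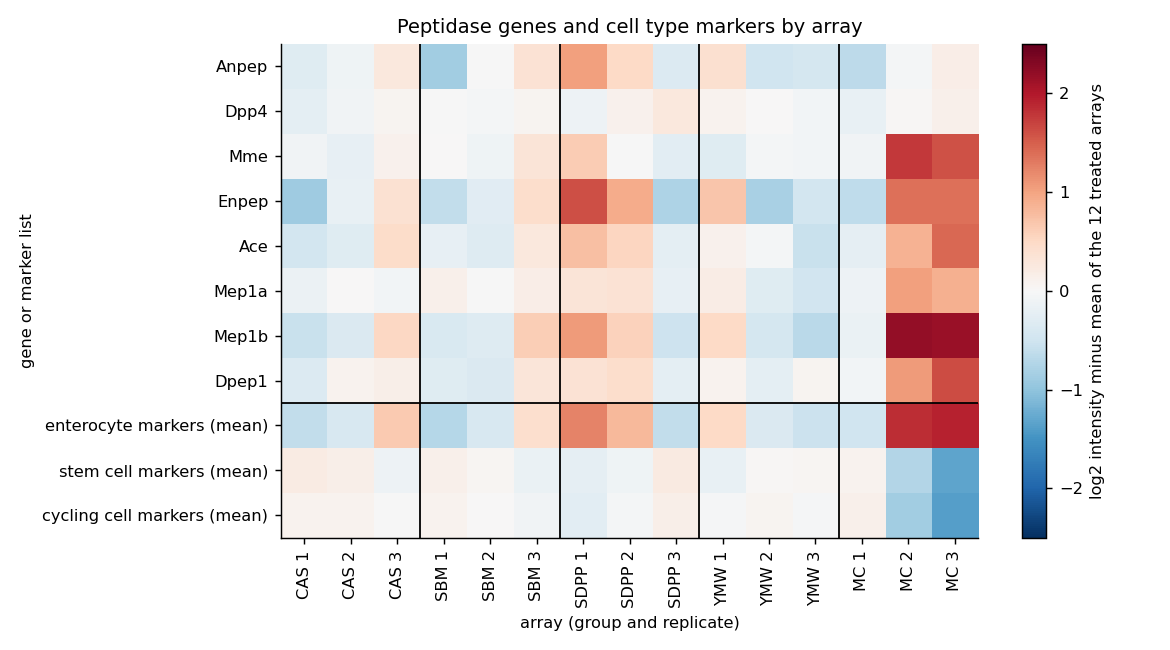
Log2 intensity of the 8 peptidase genes and the means of the enterocyte, stem cell and cycling cell markers on each array, minus the mean of the 12 treated arrays of that row. Treated groups stand to the left of the MC, and red is higher. SDPP replicates 1 and 2 and MC replicates 2 and 3 are red for most peptidase genes and for the enterocyte markers, and Dpp4 stays pale on all arrays.

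Genes around the peptidases in protein digestion were counted from fixed lists for the mean of the 4 sources against the MC, where 1.9% of all genes were lower and 1.45% higher. Of 11 carriers for peptides and amino acids that were measured, 8 had a mean above background. Of the 11, 5 fell and 0 rose, and 1 had an adjusted p below 0.05 in limma, as did 1.52% of all genes. The carrier that fell and is not named below had a mean below background. Slc15a1, the proton-coupled peptide carrier PEPT1, was at 3.89, 4.09 and 5.74 with CAS, 3.58, 4.06 and 5.14 with SBM, 6.51, 5.98 and 4.04 with SDPP, 5.03, 3.77 and 3.87 with YMW, and 3.89, 7.30 and 7.66 in the MC, in log2 intensity. Its 5 highest treated arrays were the ones named above for the peptidases, and it was 3.12-fold lower in limma (log2 fold change -1.64, SE 0.69, adjusted p = 0.172). Slc7a9, the light chain of the carrier for cystine and dibasic amino acids, fell by 1.3, Slc6a20a, an imino acid carrier, by 0.78 and Slc7a8, a basolateral exchanger of neutral amino acids, by 0.64.

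Of 8 other hydrolases of the brush border, 2 fell and 0 rose. Sis, sucrase-isomaltase, fell by 1.21 and Treh, trehalase, by 0.72 on the log2 scale, and the intestinal alkaline phosphatase Alpi, at -0.55, did not pass. Of 16 genes listed for the microvillus cytoskeleton and its scaffold, 6 fell and 0 rose. In limma, 1 of these 16 had an adjusted p below 0.05, and none of the 8 hydrolases or of the transcription factors below did. The list also holds Slc9a3, a sodium-proton exchanger and not a cytoskeletal gene, which is counted with the others here and below and fell by 1.3. The adhesion protocadherins Cdhr2 and Cdhr5 fell by 0.97 and 0.85 and the motor Myo1a by 0.85, while villin, Vil1, at -0.50, did not pass. Of 10 enterocyte transcription factors 3 fell and 0 rose, Hnf4g by 0.90, Klf4 by 0.89 and Maf by 0.88. MC replicates 2 and 3 were above the 13 other arrays for 7 of the 11 carriers and 6 of the 8 hydrolases. The same held for 13 of the 16 cytoskeletal genes and 6 of the 10 transcription factors. Of genes above background 15.2% had this order, and the carrier and hydrolase lists also hold genes below it. With MC replicate 1 alone as the control, 0 genes of these 4 lists passed. Without MC replicate 1, 5 carriers, 5 hydrolases, 9 cytoskeletal genes and 3 transcription factors fell, where 4.31% of all genes were lower. Without MC replicate 2 the counts were 1, 0, 1 and 1, and without MC replicate 3 they were 1, 0, 0 and 1, all lower. The shares of all genes that were lower were then 0.584% and 0.329%.

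Peptidases that are not among the 9 members, whether or not they sit in the brush border, were at 0 calls with all 3 MC arrays. Of 18 other membrane peptidases, 0 passed, with a median of -0.04 on the log2 scale (1 passed, lower, without MC replicate 1). Only 9 of the 18 had a mean above background, and the rest lay where intensity understates a difference. The mean of the 18 had the same 5 highest treated arrays as the members, though only 1 of the 18 did singly. MC replicates 2 and 3 were above the 13 other arrays for 3 of the 18, against 15.2% of genes above background. The values of largest size above background were -0.18 for the aminopeptidase P Xpnpep2 and -0.14 for Dpep2. Enteropeptidase, Tmprss15, was below background, with a mean of 3.23 in the treated arrays and 3.65 in the MC. Of 21 intracellular peptidases 0 passed, with a median of -0.07, the furthest being Dpp9 at -0.29 and Xpnpep1 at -0.27. All 21 were above background. For the glutathione cycle, which Ggt1 serves by cutting glutathione outside the cell, 0 of 11 genes passed with the 4 sources (2 did without MC replicate 1, both higher), and Gclc, which makes the first step of glutathione synthesis, was at 0.49 and the cystine carrier Slc7a11 at 0.32. With YMW alone, Gclc was at 10.28, 10.63 and 10.28, against 10.39, 9.39 and 9.26 in MC replicates 1, 2 and 3, and rose by 0.71 in log2 units in limma (SE 0.21, adjusted p = 0.124). MC replicate 1 lay within the range of the YMW arrays, so the difference came from MC replicates 2 and 3.

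The genes most like the peptidases over the arrays were found by the root mean square difference between log2 values centred on each gene's mean over the 15 arrays, among genes above background. The nearest to the mean profile of the 8 were Serpinb1a at 0.08, Gpd1 at 0.09, Trim31 at 0.10, Sec23a at 0.10 and Adh1 at 0.11 log2 units, where the profile itself had an SD of about 0.5. For single members the nearest gene was Reg1 for Anpep at 0.19, Apcdd1 for Dpp4 at 0.08, Adh4 for Mme at 0.17, Fabp2 for Enpep at 0.20 and Asap1 for Ace at 0.15. It was Ifrd1 for Mep1a at 0.15, St3gal4 for Mep1b at 0.14 and Tmc5 for Dpep1 at 0.13. Among the members, Ace and Dpep1 were nearest to each other at 0.25, and Enpep and Mep1b at 0.38. Mme and Mep1a were nearest to Dpep1, at 0.29 and 0.28. The nearest member was Ace for Anpep at 0.46 and Mep1a for Dpp4 at 0.38, and the low value for Dpp4 and Apcdd1 comes with profiles that hardly varied.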

How the data were processed

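RNA of 15 samples was measured on Affymetrix mouse gene 1.1 ST arrays. The intensity values were deposited by the authors after RMA, which corrects the background, normalizes the arrays by quantiles and summarises probes into probe sets; its version is not given in the sources used here. The values are on a linear scale, 3.02 to 10739.1, with array medians of 21.7 to 24.1, so log2 was taken. Of 35556 probe sets, 21218 had 1 gene symbol in the platform annotation, 1881 had several and 12457 had none, and where a gene had several, the brightest on average was used. Sequences are from RefSeq. Precision is limited by the number of arrays and, for dim genes, by the background.

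The tests used limma (version 3.58.1, R 4.3.3), with 5 group means in a single model and variances moderated by a trend on intensity, and p-values were adjusted by Benjamini-Hochberg over 18820 genes. The members, lists and tests were chosen with earlier results of these data known, and the motifs, the order of the treated arrays and that of the MC arrays were examined after the values were seen. Beside the 9 members, the text names up to 4 genes per list past the threshold with the largest change, or 2 where none passed, the nearest genes by profile, and Slc15a1, Tmprss15, Alpi, Sis and Vil1, above background unless stated. Gclc with YMW was named after its value was seen. Alternatives changed the prior variance, the statistic, the arrays in the fit, the filter, the normalization, array weights, the probe set rule, the threshold, the MC arrays (for the lists, after seeing the data) and each array in turn. No block was used, since neither labels nor methods say that same-numbered arrays share a mouse. In their deviations from the group means, 9 of 30 same-numbered pairs of arrays correlated above 0.1. These deviations also hold the order of the treated arrays given above, so they cannot tell whether same-numbered arrays share a mouse.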

Additional observations from a re-analysis of the deposited data

How the results depend on the processing

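With MC replicate 1 alone as the control, the count of peptidase genes past the threshold was 0 in all 5 comparisons with the MC. The log2 fold changes of called genes that then changed sign were 0.03 for Mme, 0.12 for Ace, 0.07 for Mep1a, 0.04 for Mep1b and 0.05 for Dpep1 with CAS, 0.17 for Mme and 0.15 for Mep1b with SBM, 0.21 for Mme with SDPP, 0.04 for Ace and 0.05 for Dpep1 with YMW, and 0.09 for Mme, 0.21 for Ace, 0.14 for Mep1a, 0.17 for Mep1b and 0.07 for Dpep1 with the 4 sources. Among genes not called, Enpep turned to between 0.39 and 1.22 in all 5, Ace and Mep1a with SBM and SDPP, Mep1b and Dpep1 with SDPP, and Dpp4 with CAS, to between 0.09 and 0.57. No other alternative turned the direction of a called gene. Leaving out 1 array at a time gave 1 to 6 genes with CAS, YMW and the 4 sources, 0 to 6 with SBM, 0 to 5 with SDPP, and 0 to 3 for SDPP against the other sources, where 1 to 84 of all genes passed. Besides the MC arrays, CAS replicates 1 and 2 (1 and 3 genes without them), SDPP replicates 2 and 3 and YMW replicates 2 and 3 (3 genes without either) moved a count by over 1.5 times, SDPP replicate 2 giving 2 genes against the MC. Mep1a with the 4 sources lost its call in 7 of 15 such fits. For the lists with the 4 sources, chosen after seeing the data, leaving out 1 MC array gave 1 to 5 carriers, 0 to 5 hydrolases, 0 to 9 cytoskeletal genes, 1 to 3 transcription factors, 0 to 1 other membrane peptidases and 0 to 2 genes of the glutathione cycle, and MC replicate 1 alone gave 0 in each. An adjusted p under 0.05 gave 0 genes in all 5 comparisons with the MC. An absolute log2 fold change above 1.5 is a reading of the footnotes to the study's tables. It gave 1 with CAS and 1 with YMW, where 45 and 51 of all genes passed, and 0 with SBM, SDPP and the 4 sources. Fitting only the groups compared gave 2 genes with CAS, 1 with SBM, 3 with YMW and 0 with SDPP (450, 359, 449 and 148 of all genes), where fewer arrays estimate the spread. With the 11031 genes above the 99th percentile of receptor genes, 3 remained with CAS, since Dpep1 was no longer tested and Ace no longer passed. The count over all genes under this filter is not given here. Array weights gave 6 genes with SBM, 4 with SDPP and, for SDPP against the other sources, 1, Enpep, where 1481, 1094 and 58 of all genes passed. With SDPP, a second quantile normalization, centring on the array median and the replicate block gave 2 genes each, Mme and Dpep1, and the cause was not tested. Counts over all genes under the second normalization and the block are not given here, so the peptidase counts are not set against them. Under the replicate block, Ace with CAS no longer passed (unadjusted p = 0.0621 in limma). Apart from this loss and the gain of Dpep1 with SDPP, no call of a peptidase gene changed. Of 15 arrays, 2 were most like an array of their own number (same-numbered pairs correlated at -0.686 to 0.537, median -0.161). Over all genes, the counts ran from 139 to 1633 for the 4 sources, 238 to 1708 for CAS, 136 to 1769 for SBM, 85 to 1379 for SDPP and 213 to 1793 for YMW when 1 array was left out. Centring on the array median gave 154 lower and 151 higher genes with SDPP, against 94 and 212 as deposited, 492 and 237 with YMW, against 400 and 328, and 438 and 216 with the 4 sources, against 358 and 272. Mme and Dpep1 lie near background on the treated arrays, where intensity understates a difference.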
